A study of Mus musculus with 6 samples.

Results

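Taspase1 is the protease encoded by Tasp1, and its transcript was examined here together with those of its known substrates and of the subunits of transcription factor TFIIA. The genes were Tasp1, Gtf2a1, Gtf2a1l, Gtf2a2, Kmt2a, Kmt2b and Usf2. A probe set was taken for a gene when the platform annotation gave that symbol and no other, with no requirement on brightness. This gave 7 genes of the 19938 that have such a probe set. Each had 1 of them, making 7 probe sets of 35556 on the array, or of 21789 that carry exactly 1 gene symbol, and 0 probe sets with several symbols named any of these genes.

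The samples were heads of C57Bl6 mouse embryos at E10.5, trimmed to the prosencephalon and mesencephalon, the vesicles that form forebrain and midbrain. All came from crosses between Tasp1+/- parents. The WT group held 3 wild-type embryos and the KO group 3 Tasp1-/- embryos, with 1 embryo per array. The loss of Tasp1 is not restricted to a tissue in the labels, the labels give neither litter nor sex, and they do not say which part of Tasp1 was removed. The study set out to find genes under the control of Taspase1 in development. Values are log2 signals as deposited, where a difference of 1 is a doubling of signal, and every difference is KO minus WT.

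Taspase1 cleaves its substrates after an aspartate and matures by cutting itself. KMT2A and KMT2B, also called MLL1 and MLL2, are large histone H3 methyltransferases that keep developmental genes active, and their cut parts stay joined in one complex. TFIIA holds the TATA-binding protein on promoters. Gtf2a1 encodes the precursor that Taspase1 splits into its alpha and beta subunits, Gtf2a2 the small gamma subunit, which is not cut, and Gtf2a1l the germ-cell form of the precursor. USF2 is a basic helix-loop-helix factor that binds the E-box. An array reads transcripts, so neither cleavage nor protein was measured.

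Of the 7 probe sets, Gtf2a1 had the widest separation between the groups. It was 1.29 times as high in KO heads (95% confidence interval 1.18 to 1.40), with all 3 KO heads above all 3 WT heads. Tasp1 itself was not lower in KO heads but 1.18 times as high (1.02 to 1.38). Gtf2a2, Gtf2a1l, Kmt2a, Kmt2b and Usf2 had overlapping groups and intervals that include no difference. In limma, a linear model fitted over all 21789 probe sets, 0 of the 7 passed an adjusted p of 0.05, and the share of all probe sets passing was 0%. At an unadjusted p under 0.05, 2 of the 7 were higher and 0 lower, beside 2.32% and 3.89% of all probe sets (1354 in either direction). Groups did not overlap, with KO higher, for 2 of the 7, beside 4.15% of all, and for 0 of the 7 with KO lower, beside 6.76%. Over the 7, 6 were higher and 1 lower, with a median difference of 0.05, where 43.7% of all probe sets were higher and their median was −0.01. With arrays centred on their medians the split was 4 higher and 3 lower.

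**Figure D1:**
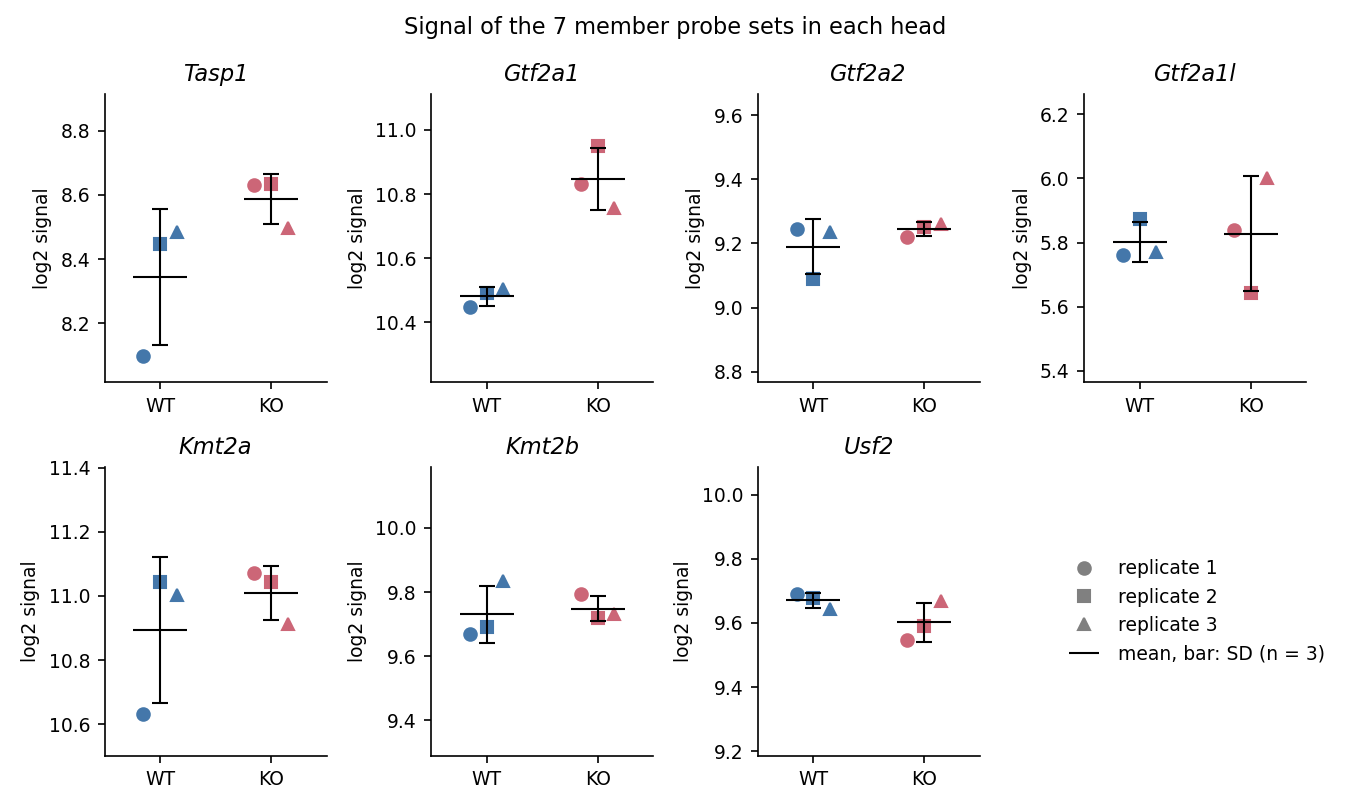
Log2 signal of each of the 7 probe sets in the 3 WT heads (blue) and the 3 KO heads (red), with the group mean and SD in black and each panel spanning the same range of log2 units around its own centre. The KO heads lie above the WT heads for Gtf2a1 (10.758 to 10.950 against 10.449 to 10.504) and narrowly for Tasp1 (from 8.50 against up to 8.49), and the groups overlap in the other panels.

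The arrays correlated with each other at 0.996 to 0.998 across probe sets. WT 1 lay at one end of the first principal component, at −16.9, with the other heads between −5.15 and 10.2. In WT 2 Xist, the transcript of the inactive X, read 12.3 while the other heads read 4.90 to 5.24, and its Y-linked Kdm5d read 5.48 while the others read 9.76 to 9.88. WT 2 thus had female and the other heads male signals, so sex was not balanced between the groups; none of the 7 genes lies on X or Y in assembly GRCm38.p6. Of the 7 forebrain and midbrain markers read, 0 were among the dimmest 40%, with Otx2 at 11.43 ± 0.15 (SD, n = 3) in WT heads, and 3 were higher and 4 lower in KO heads. Among them the selector gene Lhx2 differed by −0.33 and the cortical regulator gene Emx2 by −0.32. For each, every KO head was below every WT head, as for 6.76% of all probe sets, and neither passed the limma threshold (adjusted p = 0.30 and 0.58). En1 (0.08), Otx2 (0.04) and Sox2 (0.03) were higher and Six3 (−0.10) lower, with overlapping groups. Lhx2 and Pax6 lie on chromosome 2, as Tasp1 does, and Pax6 differed by −0.06 with overlapping groups. Of 7 hindbrain probe sets, 5 were among the dimmest 40% (Hoxb3 and Gbx2 were not), and 6 were lower in KO heads (7 with quantile normalization or median centring), with 0 past the threshold in limma. Their mean was 6.09 to 6.28 in KO and 6.20 to 6.36 in WT heads. The mean over the marker list was 10.0 to 10.3 over all heads for mesenchyme, 9.08 to 9.20 for endothelium and 7.39 to 7.56 for macrophages. Of 5 macrophage probe sets, 1 (Aif1) was among the dimmest 40%, and 2 were higher and 3 lower. The complement gene C1qb differed by −0.30, with every KO head below every WT head (limma adjusted p = 0.45). Cx3cr1 (0.11) and Aif1 (0.09) were higher and Csf1r (−0.07) and Fcer1g (−0.08) lower, with overlapping groups. The erythroid mean over 4 probe sets was 11.93 to 12.02 in KO and 12.03 to 12.11 in WT heads, lower in all KO heads; with quantile normalization 2 of the 4 differences were above and 2 below 0. Of these 4 probe sets, 0 passed in limma, and Hbb-bh1, an embryonic globin gene, differed by −0.21 (adjusted p = 0.42). Alas2 differed by −0.13, Hba-x by −0.02 and Hbb-y by −0.0005, each with overlapping groups. The part of these markers in the results below was not tested.

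The protease comes first. Tasp1 (probe set 10488090, gene on chromosome 2) read 8.10, 8.45 and 8.49 in WT 1, WT 2 and WT 3 and 8.63, 8.63 and 8.50 in KO 1, KO 2 and KO 3. The groups did not overlap, but only 0.01 log2 units separated KO 3 from WT 3, and WT 1 stood apart on the low side. The difference was 0.24 (95% confidence interval 0.02 to 0.46), with an unadjusted limma p of 0.033 that became 0.79 after adjustment. The exact two-sided permutation test gave p = 0.1, the minimum for 3 against 3. Leaving out WT 1, the head apart on the principal component, brought the difference to 0.12 (limma unadjusted p = 0.12). Because the position of the probe set relative to the disrupted part of the gene is not known here, the signal neither checks nor contradicts the genotype labels. KO therefore means a head labelled Tasp1 KO throughout. In bulk tissue, fewer cells of a type and less RNA per cell cannot be told apart.

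Genes beside Tasp1 on chromosome 2 were read as well. The 5 genes on each side that have a probe set with 1 symbol gave 15 probe sets, 6 of them for Macrod2. Of these, 12 were higher and 3 lower (10 and 5 after median centring), 0 passed in limma and 0 had an unadjusted p under 0.05, beside 6.21% of all probe sets. The immediate neighbours were Ism1, which encodes a secreted protein, at 0.02 and Esf1, a gene of ribosomal RNA processing, at 0.09. Groups did not overlap for Sel1l2 (−0.12) and Flrt3, a gene of a membrane adhesion protein (−0.11), both lower in KO heads. These were 2 of 15, beside 10.9% of all probe sets in either direction. Sel1l2 was brighter than only 7.80% of all probe sets.

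Gtf2a1, the precursor of the large TFIIA subunits (probe set 10401882, gene on chromosome 12), read 10.449, 10.490 and 10.504 in the WT heads. In KO 1, KO 2 and KO 3 it read 10.830, 10.950 and 10.758. The lowest KO head was 0.25 above the highest WT head, while the whole spread was 0.06 among WT and 0.19 among KO heads. The WT mean of 10.48 ± 0.03 and the KO mean of 10.85 ± 0.10 (SD, n = 3 each) differed by 0.37, with an SE of 0.06. In absolute size this exceeded the difference of 99.5% of all probe sets, and its unadjusted p, 5.2e-05, was the 8th smallest of 21789. The limma adjusted p was 0.14, so it did not pass, and the exact permutation p was 0.1, the minimum for this design. Leaving out single heads moved the difference between 0.31 (without KO 2) and 0.41 (without KO 3). It was 0.35 without WT 1 and 0.37 without WT 2, the head with female signals. With array quality weights the adjusted p was 0.076, and with an ordinary linear model per probe set, which has only the 6 heads to estimate the spread, 0.89.

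Gtf2a2, the small uncut subunit (probe set 10586773, chromosome 9), read 9.25, 9.09 and 9.23 in WT heads and 9.22, 9.25 and 9.26 in KO heads. The KO heads lay within 0.04 of each other, and WT 1 and WT 3 lay among them, with WT 2 alone lower. The difference was 0.05 (95% confidence interval −0.08 to 0.19; limma adjusted p = 0.92), and without WT 2 it was 0.005. The upper end of the interval corresponds to 1.14 times the WT signal.

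Whether the cut and the uncut subunit differed from each other was tested within each head. The log2 signal of Gtf2a1 minus that of Gtf2a2 was 1.204, 1.400 and 1.270 in WT heads and 1.610, 1.698 and 1.496 in KO heads. Only the change of this quantity has a meaning, since probe sets differ in how brightly they bind. All 3 KO heads were above all 3 WT heads, by 0.31 on average (exact two-sided permutation p = 0.1, or 0.3 after Benjamini-Hochberg adjustment over the 3 such contrasts). The same quantity for Gtf2a1 minus Tasp1 differed by 0.12 and overlapped between the groups (exact permutation p = 0.4, adjusted 0.6). The overlap rested on WT 1: without it the difference was 0.23 with no overlap (exact permutation p = 0.1, the minimum for 2 against 3), and it was 0.07 without WT 2 and 0.06 without WT 3.

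Gtf2a1l, which encodes the germ-cell form of the precursor (probe set 10447467, chromosome 17), was dim. It read 5.760, 5.874 and 5.770 in WT heads and 5.840, 5.644 and 6.001 in KO heads. The KO heads lay on both sides of the WT heads, and the difference was 0.03 (95% confidence interval −0.18 to 0.24; limma adjusted p = 0.98), with −0.06 when KO 3 was left out. It was the 1 member among the dimmest 40% of probe sets, below a mean log2 signal of 7.06. A difference at such a signal can understate a change in transcript, which was not tested here. All 6 probe sets of 5 germ cell marker genes were below 7.06 too. In KO heads 3 of them were higher and 3 lower, and 0 passed after adjustment. The 3 higher ones, Sycp3 of the meiotic chromosome axis (0.27), the helicase gene Ddx4 (0.20) and Mael (0.17), had an unadjusted limma p under 0.05, beside 2.32% of all probe sets. Groups did not overlap for Sycp3 but did for Ddx4 and Mael (exact permutation p = 0.2 each). The lower ones were Dazl at −0.10, with every KO head below every WT head, and the 2 probe sets of Dppa3 at −0.19 and −0.0008. Groups did not overlap for 4.15% of all probe sets with KO higher and for 6.76% with KO lower. The means over the germ cell list were 4.62 to 4.68 in WT and 4.66 to 4.73 in KO heads.

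**Figure D2:**
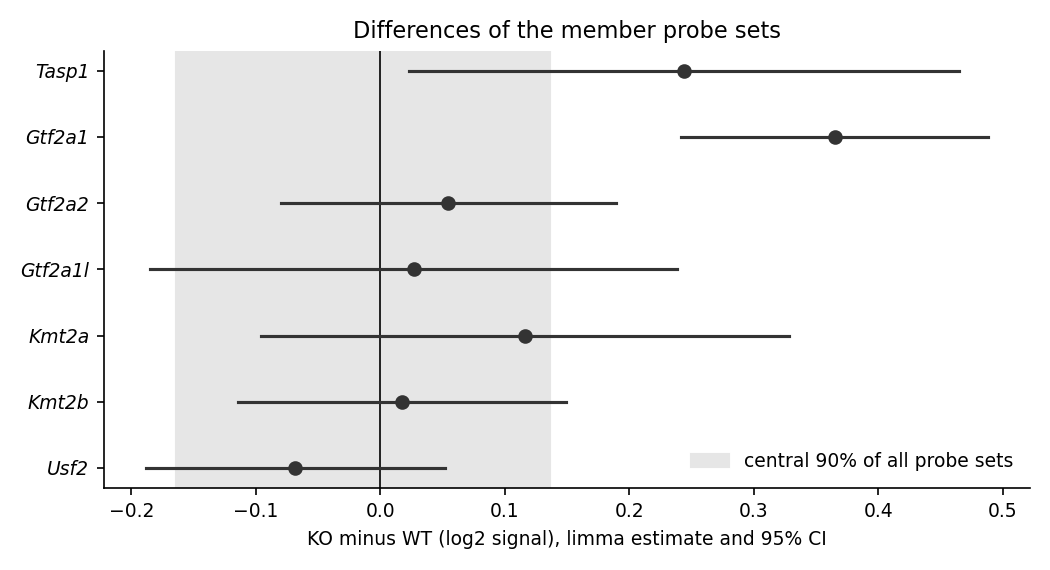
Difference KO minus WT in log2 signal for each of the 7 probe sets (dot) with the 95% confidence interval of limma (line); the grey band spans the central 90% of differences over all 21789 probe sets, from −0.16 to 0.14. The intervals of Gtf2a1 (0.24 to 0.49) and Tasp1 (0.02 to 0.46) lie above 0, and the other 5 cross it.

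The methyltransferase substrates followed. Kmt2a (probe set 10592942, chromosome 9) read 10.63, 11.05 and 11.00 in WT heads and 11.07, 11.04 and 10.91 in KO heads. WT 1 alone was low, and the remaining 5 heads lay between 10.91 and 11.07. The difference was 0.12 (95% confidence interval −0.10 to 0.33; limma adjusted p = 0.89), and without WT 1 it was −0.01. WT 1 was thus the lowest head for both Tasp1 and Kmt2a.

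Kmt2b (probe set 10562005, chromosome 7) read 9.67, 9.69 and 9.83 in WT heads and 9.80, 9.72 and 9.73 in KO heads. The KO heads lay within the range of the WT heads. The difference was 0.02 (limma adjusted p = 0.98). Its 95% confidence interval ran from −0.11 to 0.15, or from 0.92 to 1.11 times the WT signal. The sign of the difference turned with median centring and with WT 1, WT 2 or KO 1 left out. The log2 signal of Kmt2a minus that of Kmt2b differed by 0.10 between the groups, with overlap (exact permutation p = 0.6, adjusted 0.6), and by −0.0004 without WT 1.

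Usf2 (probe set 10562172, chromosome 7) was the 1 member that was lower in KO heads. It read 9.69, 9.68 and 9.64 in WT heads and 9.55, 9.59 and 9.67 in KO heads. KO 1 and KO 2 lay below every WT head and KO 3 among them. The difference was −0.07 (95% confidence interval −0.19 to 0.05; limma adjusted p = 0.89; exact permutation p = 0.2) and stayed between −0.10 and −0.04 with each head left out in turn.

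**Figure D3:**
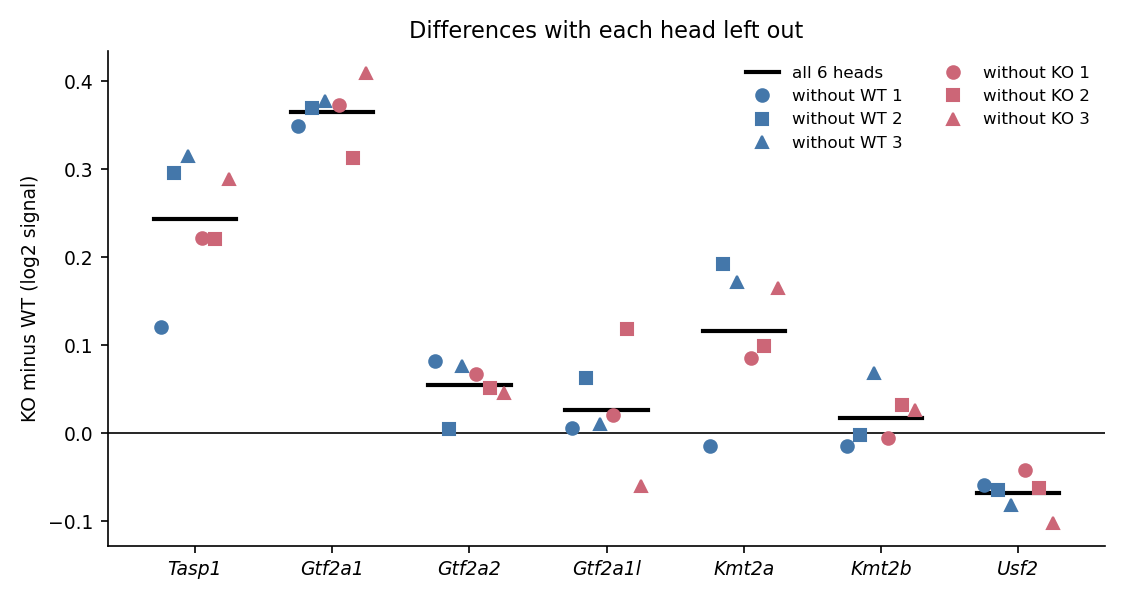
Difference KO minus WT in log2 signal for each of the 7 probe sets with all 6 heads (black line) and with each head left out in turn (blue, a WT head left out; red, a KO head left out; the shape gives the replicate). Gtf2a1 stays between 0.31 and 0.41, Tasp1 drops to 0.12 and Kmt2a to −0.01 without WT 1, and Kmt2b and Gtf2a1l cross 0.

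Both genes whose groups did not overlap were looked up in the RefSeq promoter table (assembly GRCm38.p6), where 5 of the 7 genes had a window, with 2 windows for Gtf2a1. The 250 bases before each start were searched on both strands for CACGTG, the E-box that USF factors bind and which reads the same on either strand, and for TATAAA, the TATA box. The motifs and the genes shown were chosen after the values and windows were seen. CACGTG was present in the windows of Tasp1 and Gtf2a1 (1 of its 2 windows) and not in those of Gtf2a1l, Gtf2a2 or Kmt2a. Kmt2b and Usf2 had no window to search. Of 32851 windows of that length 6.02% hold it, and by gene 1854 of 27025 do. Whether the E-box has a part in the differences was not tested. TATAAA was found in 1 of the 6 windows, that of Gtf2a2, beside 12.4% of all, counting either strand. In Gtf2a2 the match is only on the strand opposite to the gene, toward the 5′ end of the window and far from the start. It therefore does not show a TATA box for this gene. In Gtf2a1 the E-box begins 13 bases before the start and in Tasp1 56 bases before it. The windows are shown from 5′ to 3′ on the gene's strand with the E-box in capitals: Gtf2a1 at chr12:91590488-91590737 (minus strand), Tasp1 at chr2:140066806-140067055 (minus strand), and Gtf2a2, the TFIIA subunit without the E-box, at chr9:70012298-70012547 (plus strand). A match is a string of letters and not a measured binding site.
Gtf2a1: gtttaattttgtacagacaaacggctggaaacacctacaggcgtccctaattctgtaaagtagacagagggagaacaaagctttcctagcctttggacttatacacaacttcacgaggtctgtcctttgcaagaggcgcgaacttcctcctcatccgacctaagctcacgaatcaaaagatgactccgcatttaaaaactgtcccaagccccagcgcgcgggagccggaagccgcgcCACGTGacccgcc
Tasp1: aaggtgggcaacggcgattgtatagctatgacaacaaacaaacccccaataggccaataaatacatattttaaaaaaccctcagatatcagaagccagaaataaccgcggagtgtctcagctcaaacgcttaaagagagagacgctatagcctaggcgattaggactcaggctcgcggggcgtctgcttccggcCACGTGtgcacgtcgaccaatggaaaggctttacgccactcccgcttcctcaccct
Gtf2a2: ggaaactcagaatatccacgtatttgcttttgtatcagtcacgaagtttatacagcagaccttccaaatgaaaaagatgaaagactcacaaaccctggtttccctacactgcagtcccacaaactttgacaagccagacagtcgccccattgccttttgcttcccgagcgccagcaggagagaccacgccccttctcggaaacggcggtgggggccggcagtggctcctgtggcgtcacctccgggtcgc

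The families and complexes around these proteins were then read from lists. Taspase1 belongs to the N-terminal nucleophile hydrolases, and its 2 listed relatives, the lysosomal aspartylglucosaminidase gene Aga and the asparaginase gene Asrgl1, differed by 0.05 and 0.01. Of 9 genes of the TATA-binding protein family and direct partners or competitors of TFIIA, 3 were higher and 6 lower (median difference −0.02), and 0 passed in limma or had an unadjusted p under 0.05. The smallest p-values belonged to Btaf1, an ATPase gene whose product removes the TATA-binding protein from DNA (0.11), Tbp itself (−0.06) and Taf1, the largest TFIID subunit gene (0.05). Of Gtf2a1's nearest partners in this list, Tbp read 10.76, 10.64 and 10.66 in WT heads and 10.59, 10.61 and 10.67 in KO heads, which overlap.

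Of 8 subunits of the MLL1 and MLL2 complexes, 3 were higher and 5 lower (2 and 6 with quantile normalization or median centring), the median difference was −0.02, and again 0 passed in limma or had an unadjusted p under 0.05. Wdr5, a scaffold gene that lies on chromosome 2, differed by −0.11, and the core subunit genes Ash2l and Rbbp5 by 0.07 and 0.08. The other USF genes, Usf1 and Usf3, differed by 0.02 each with limma adjusted p-values of 0.98 and 0.97; their signs, and that of Asrgl1 but not of Aga, turned with median centring. The median over all probe sets moved between −0.04 and −0.007 across the scalings.

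**Figure D4:**
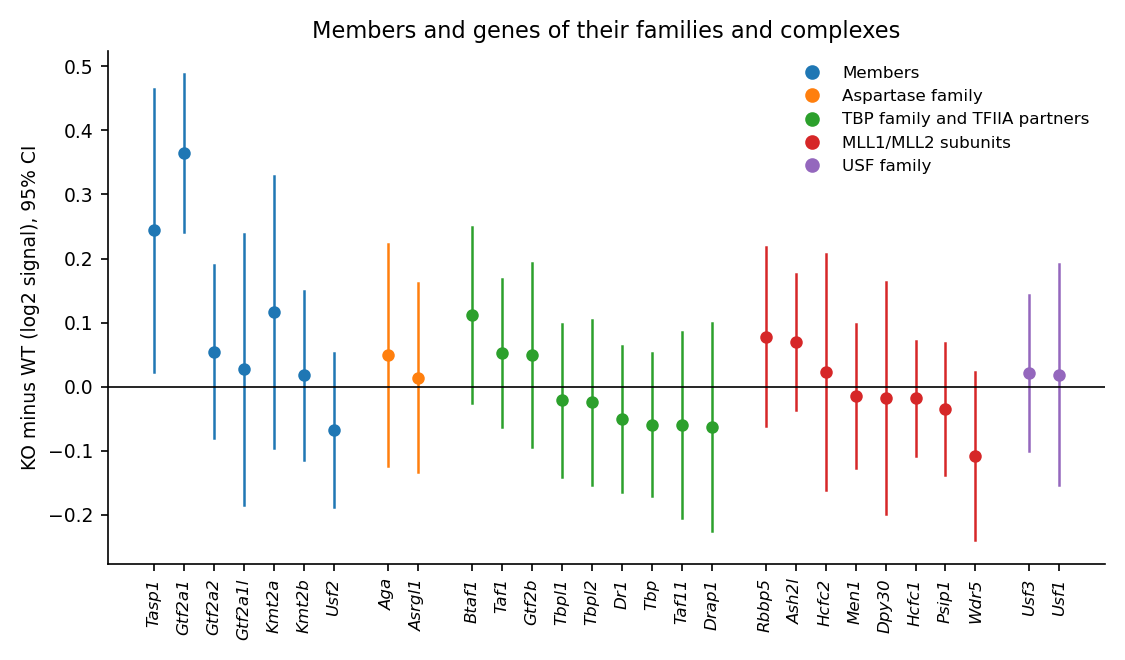
Difference KO minus WT in log2 signal with its 95% confidence interval (limma) for the 7 genes studied and for the listed relatives and complex partners, ordered by size within each list. Outside the 7, the largest differences are those of Btaf1 (0.11) and Wdr5 (−0.11), and every interval there includes 0.

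Probe sets whose pattern over the 6 heads was closest to that of Gtf2a1 or Tasp1 were found among 13072 others above the dimmest 40%, by the root mean square difference between profiles centred on their means. For Gtf2a1 they were Cdr1os, Styx, Fcf1, D430041D05Rik and Knl1, at 0.053 to 0.068 log2 units, where the median over all compared was 0.20. Their KO heads were all above their WT heads, with differences of 0.34, 0.27, 0.29, 0.30 and 0.25 and limma adjusted p-values of 0.25 to 0.40. Knl1, a kinetochore gene, read 10.74, 10.75 and 10.76 in WT heads and 10.96, 11.05 and 10.97 in KO heads.

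For Tasp1 the closest were Gria4 and Gria3, genes of glutamate receptor subunits, Ate1, which encodes an arginyltransferase, Ppp1r12b and Zdbf2, at 0.022 to 0.033 log2 units, where the median was 0.19. In each of these WT 1 was the lowest head, as in Tasp1: Gria4 read 7.53 in WT 1 and 7.87 to 8.03 in the other heads. Their differences ran from 0.20 to 0.27, with limma adjusted p-values of 0.72 to 0.83. Both sets were chosen for their likeness and carry no test. The chromosomes of these genes are not given here, and linkage to Tasp1 was not tested.

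**Figure D5:**
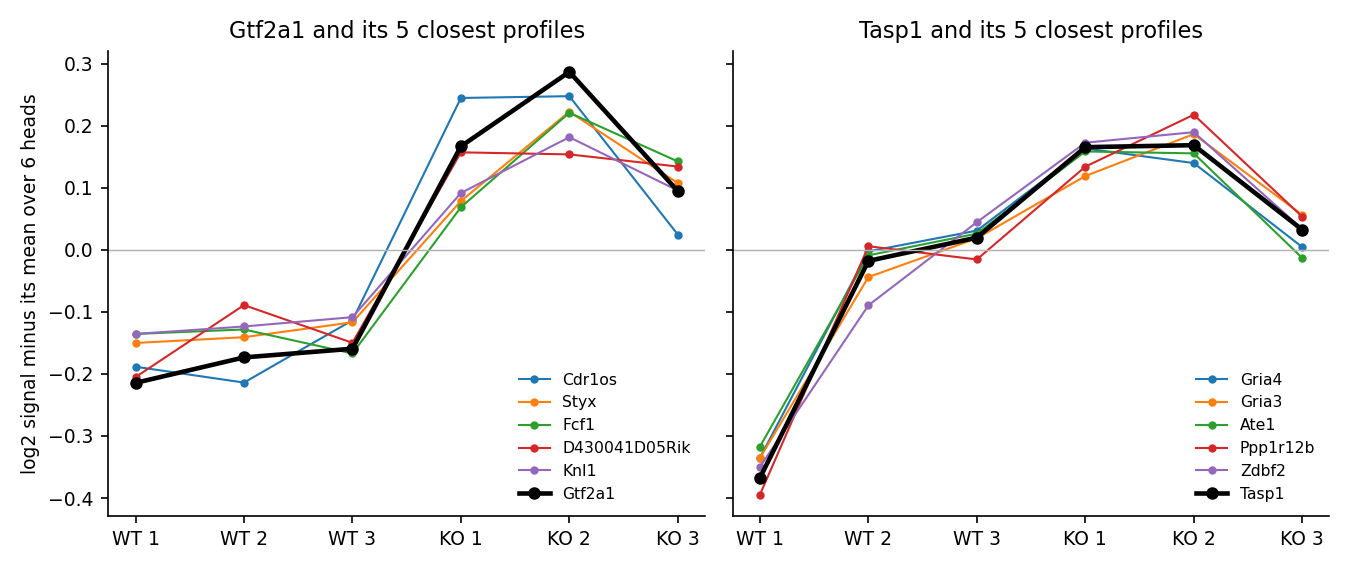
Log2 signal minus its mean over the 6 heads, by head, for Gtf2a1 (left, black) and Tasp1 (right, black) with the 5 closest profiles of each (colours). The Gtf2a1 profiles step up between the WT and the KO heads, and the Tasp1 profiles are lowest in WT 1.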

How the data were processed

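Biotin-labelled RNA made from 100 ng of total RNA per head was hybridised to Affymetrix arrays, per the labels' protocols. The authors deposited a log2 signal per probe set (35556 probe sets, 2.73 to 14.4, array medians 7.35 to 7.45). Affymetrix Expression Console and MAS5 are listed in the submitters' processing notes; the methods for background, scaling and probe summary were not given in the sources used here. Deposited values were used as they are, with no pseudocount.

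Probe sets were named from the platform annotation: 21789 had 1 symbol, 1621 several and 12146 were not listed. The 21789 were fitted with limma 3.58.1 (R 4.3.3; functions lmFit and eBayes, the latter allowing the variance to depend on mean signal; two-sided tests; Benjamini-Hochberg over all), and single values were tested by exact permutation over the 20 assignments of 3 against 3, whose smallest p is 0.1. The number of arrays limits the precision. The procedure was tested on simulated data with normal noise, independent between probe sets. At a fold of 1.25 it recovered 32 of 67 changed probe sets, and at 1.5 it recovered 66 of 67. It also called 14 unchanged probe sets, and 3 when no change was added. The genes and lists were chosen with earlier results of these data known, so no p adjusted over them alone is given. Named genes were all members, up to 3 genes of smallest p per list, the 5 neighbours on each side of Tasp1 and the 5 closest profiles; marker genes and Tbp, Sel1l2 and Flrt3 were named after their values were seen. A planned scan of protein sequences for the Taspase1 recognition core was not done. The labels number replicates 1 to 3 in both groups without stating a pairing.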

Additional observations from a re-analysis of the deposited data

How the results depend on the processing

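The alternatives were quantile normalization, median centring, 64 added on the linear scale, all probe sets, the dimmest 40% left out (also with 1 probe set per gene), other variance models, array weights, the replicate block and each head left out in turn. No alternative brought any of the 7 probe sets past the threshold. Gtf2a1, Tasp1, Gtf2a2 and Usf2 kept their direction throughout, with Gtf2a1 between 0.31 and 0.41 (adjusted p 0.076 to 0.89) and Tasp1 between 0.12 and 0.32.

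The number of probe sets called, 0 with all heads, was 9 when all probe sets were fitted (all 9 with several symbols), 1 with array weights, 3 at an adjusted p of 0.1, and 0 to 8 with single heads left out: 8 without KO 1 and 1 without WT 1, none of them a member. Kmt2b was −0.0093 with median centring and ran from −0.014 to 0.069 with single heads left out. Gtf2a1l was −0.00018 with median centring and −0.028 with array weights, and ran from −0.060 to 0.12; the dim filter removes it. Kmt2a ran from −0.014 to 0.19, Kmt2a minus Kmt2b from −0.00037 to 0.19 and Gtf2a1 minus Tasp1 from 0.062 to 0.23. The cause was not tested.

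Deviations of same-numbered heads from their group means correlated at −0.14, −0.14 and −0.29 across probe sets. No values for differently numbered heads are given beside these, so whether same-numbered heads shared a litter or a batch cannot be told. With the replicate block 0 probe sets were called, the Gtf2a1 difference was 0.37 (limma adjusted p = 0.17) and that of Tasp1 0.24 (limma adjusted p = 1).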
